A study of Mus musculus with 24 samples.

Results

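The subject is a set of 10 genes that lie near Hira on mouse chromosome 16, measured in the tibialis anterior muscle of Hira conditional knockout mice: Tbx1, Tango2, Arvcf, Camk2n2, the long noncoding RNA A930003A15Rik, Txnrd2, Gnb1l, Dgcr8, Trmt2a and Zdhhc8. Members were found through the annotated symbol or an older synonym of each array row, and made up 10 of the 17742 genes measured and 11 of the 26423 probe rows, since Tbx1 had a pair of rows and the other 9 had 1 row each. Tango2 stood in the annotation as D16H22S680E. The genes were chosen by their place beside Hira and by their measured control against knockout differences in these same animals. Their differences are therefore given as a description, with their errors and without p-values.

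The series profiled whole tibialis anterior, a fast leg muscle, at the age of 6 months with expression arrays. Control mice had the genotype Myf6 cre/+; Hira flox/+ and knockout mice Myf6 cre/+; Hira flox/-, all of strain C57BL6/J;129S1/SvImJ. There were 4 animals in each group, and the RNA of every animal was hybridised 3 times, which gave 24 arrays. The Cre recombinase is made from the Myf6 locus, which is active in muscle fibres, and animals of both groups carry it. Fibres of control mice thus keep 1 intact Hira copy after recombination, while in knockout mice the null copy is present in every cell of the body, including cells other than fibres. The null copy also brings its own chromosome 16 with it, so a difference carried by that chromosome copy and the loss of Hira in fibres cannot be told apart for genes that lie beside Hira. In a whole muscle, fewer cells of a type and less RNA per cell cannot be told apart either. The question addressed here is how far transcripts from the chromosomal surroundings of Hira differ between these genotypes.

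HIRA is a chaperone that deposits a replacement form of histone H3 into chromatin outside of DNA replication. In people, the corresponding stretch of chromosome, with TBX1, TANGO2, ARVCF, TXNRD2, GNB1L, DGCR8, TRMT2A, ZDHHC8 and HIRA, is lost in DiGeorge (velocardiofacial) syndrome. TBX1 is a T-box transcription factor needed for the pharyngeal arches, the outflow tract of the heart and the muscles of the head. Loss of TANGO2 function in people causes episodes of muscle breakdown and metabolic crisis.

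In the gene order of RefSeq's mouse table (assembly GRCm38.p6), in which every entry of whatever type counts as 1 place, 8 members lay on the lower-numbered side of Hira. Tbx1 was the nearest at 14 places, followed by Gnb1l at 15, Txnrd2 at 16, Arvcf at 19, Tango2 at 21, Dgcr8 at 24, Trmt2a at 25 and Zdhhc8 at 28. On the higher-numbered side A930003A15Rik lay 33 places and Camk2n2 58 places away. No member was adjacent to Hira, and between 3 and 16 measured genes separated each from it. Some members overlap other transcripts: Trmt2a overlaps Dgcr8, Tango2 holds the microRNA gene Mir185, Dgcr8 holds Mir1306, and Camk2n2 overlaps the read-through entry Eef1akmt4-ece2. No source used here gives the strand that a probe reads, so signal from such partners cannot be told apart.

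Promoter windows of 300 bases (250 before and 50 after an annotated start; RefSeq, GRCm38.p6) were available for 10 of 10 members, 15 windows in all. The windows of Tango2 and Arvcf are shown because both transcripts were lower in knockout muscle and their starts lie 84 bases apart on opposite strands. Tango2 (minus strand) is read from chr16:18348049-18348348 and Arvcf (plus strand) from chr16:18347932-18348231, each written 5′ to 3′. Capitals mark the 183 bases that both windows hold, once on each strand.
Tango2: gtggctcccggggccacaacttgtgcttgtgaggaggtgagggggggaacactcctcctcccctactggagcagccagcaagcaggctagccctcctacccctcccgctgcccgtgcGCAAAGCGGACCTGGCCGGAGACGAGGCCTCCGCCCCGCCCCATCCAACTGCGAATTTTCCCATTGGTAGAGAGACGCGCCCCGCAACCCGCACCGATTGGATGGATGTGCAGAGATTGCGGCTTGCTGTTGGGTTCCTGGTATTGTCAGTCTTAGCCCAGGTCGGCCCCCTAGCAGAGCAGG
Arvcf: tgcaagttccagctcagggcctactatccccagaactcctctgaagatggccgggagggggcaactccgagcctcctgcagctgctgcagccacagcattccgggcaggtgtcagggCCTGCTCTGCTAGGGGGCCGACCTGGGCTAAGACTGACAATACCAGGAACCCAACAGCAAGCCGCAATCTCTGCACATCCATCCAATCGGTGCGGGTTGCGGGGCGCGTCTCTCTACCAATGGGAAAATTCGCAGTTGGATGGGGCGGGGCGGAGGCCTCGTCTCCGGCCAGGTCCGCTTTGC
The shared stretch holds 13 CG dinucleotides, 2 CCAAT runs and 2 GGGCGG runs, counted on both strands. Tango2 and Arvcf each have further annotated starts outside this stretch, and the array does not tell which start a transcript came from.

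The windows of the members with the most lowered and the most raised values are shown for contrast, with every CG dinucleotide in capitals. Tbx1 has 2 windows, both on the minus strand, at chr16:18588850-18589149 (window 1) and chr16:18590622-18590921 (window 2), and their starts lie 1772 bases apart. A930003A15Rik (chr16:19884225-19884524) and Camk2n2 (chr16:20621229-20621528) are also on the minus strand.
Tbx1 window 1: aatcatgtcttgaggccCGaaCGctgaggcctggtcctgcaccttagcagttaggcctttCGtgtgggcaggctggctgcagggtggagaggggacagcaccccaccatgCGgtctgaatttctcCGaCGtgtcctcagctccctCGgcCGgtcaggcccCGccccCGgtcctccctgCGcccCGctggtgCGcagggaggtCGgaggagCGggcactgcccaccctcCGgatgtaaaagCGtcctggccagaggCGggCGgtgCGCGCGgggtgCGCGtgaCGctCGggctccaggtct
Tbx1 window 2: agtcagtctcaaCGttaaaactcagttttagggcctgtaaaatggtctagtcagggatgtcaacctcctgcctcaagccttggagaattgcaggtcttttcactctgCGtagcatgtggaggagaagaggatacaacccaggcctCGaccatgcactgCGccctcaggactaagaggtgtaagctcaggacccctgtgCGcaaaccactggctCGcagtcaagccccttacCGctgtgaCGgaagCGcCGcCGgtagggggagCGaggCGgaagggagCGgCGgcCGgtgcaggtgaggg
A930003A15Rik: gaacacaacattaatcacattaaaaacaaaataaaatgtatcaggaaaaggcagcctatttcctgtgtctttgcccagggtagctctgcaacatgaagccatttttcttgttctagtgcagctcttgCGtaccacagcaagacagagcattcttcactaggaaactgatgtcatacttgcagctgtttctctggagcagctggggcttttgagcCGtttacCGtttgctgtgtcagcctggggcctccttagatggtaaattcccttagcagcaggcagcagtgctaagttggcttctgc
Camk2n2: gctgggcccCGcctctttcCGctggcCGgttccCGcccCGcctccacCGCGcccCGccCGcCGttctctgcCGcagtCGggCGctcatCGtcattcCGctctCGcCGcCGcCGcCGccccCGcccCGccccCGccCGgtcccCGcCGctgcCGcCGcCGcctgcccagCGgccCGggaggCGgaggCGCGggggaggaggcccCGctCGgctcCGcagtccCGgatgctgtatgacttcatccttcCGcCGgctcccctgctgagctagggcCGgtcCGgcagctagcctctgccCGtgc
Camk2n2, which was higher in knockout muscle, had 43 CG dinucleotides and 79.0% G and C in its window. A930003A15Rik, which was also higher, had 3 CG dinucleotides and 46.0% G and C. The Tbx1 windows had 26 and 16 CG dinucleotides. Thus the 2 raised members lay at opposite ends of CG content, and the lowered members between them. The median over 32851 promoter windows of 27025 genes was 7 CG dinucleotides and 52.7% G and C.

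Short motifs were searched in all windows on both strands, with overlapping matches counted. The E-box letters CANNTG were in 12 of the 15 member windows and in 72.3% of all windows. CCAAT was in 7 member windows against 37.4% of all, GGGCGG in 12 against 35.7%, and TATAAA in 0 against 13.6%. The letters GGTGTGA, the core of the site that T-box factors bind, were in 2 member windows (1 of Arvcf and the window of Gnb1l) against 3.98% of all windows. The 15 windows are not independent, since windows 2 and 3 of Tango2 overlap each other and window 1 of Tango2 overlaps 1 of Arvcf. A match is a run of letters and not a shown binding site.

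All values that follow are log2 of the deposited linear array intensity, averaged over the 3 hybridisations of an animal, and levels of different genes are not set against each other because each probe has its own brightness. A gene is said to have passed when its adjusted p in limma, over all genes tested, was under 0.05. All 11 member rows were above the dim level (a log2 intensity of 6.96, the highest 5th percentile of any array) on all 24 arrays. Of the 10 members, 5 passed, 3 of them lower and 2 higher in knockout muscle; over all genes, the fit called 9.28%, with 5.01% lower and 4.28% higher. The animals of the groups did not overlap for 6 members, 4 lower and 2 higher, against 17.5% of all genes (10.2% lower and 7.24% higher). A fold of 2 or more was reached by Tbx1 and Tango2 among the lower members and by A930003A15Rik among the higher, against 0.581% and 1.37% of all genes. Because this contrast chose the members, nothing is read from these counts. The median difference of the members was -0.21, with 7 lower and 3 higher, beside -0.07 over all genes.

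**Figure D1:**
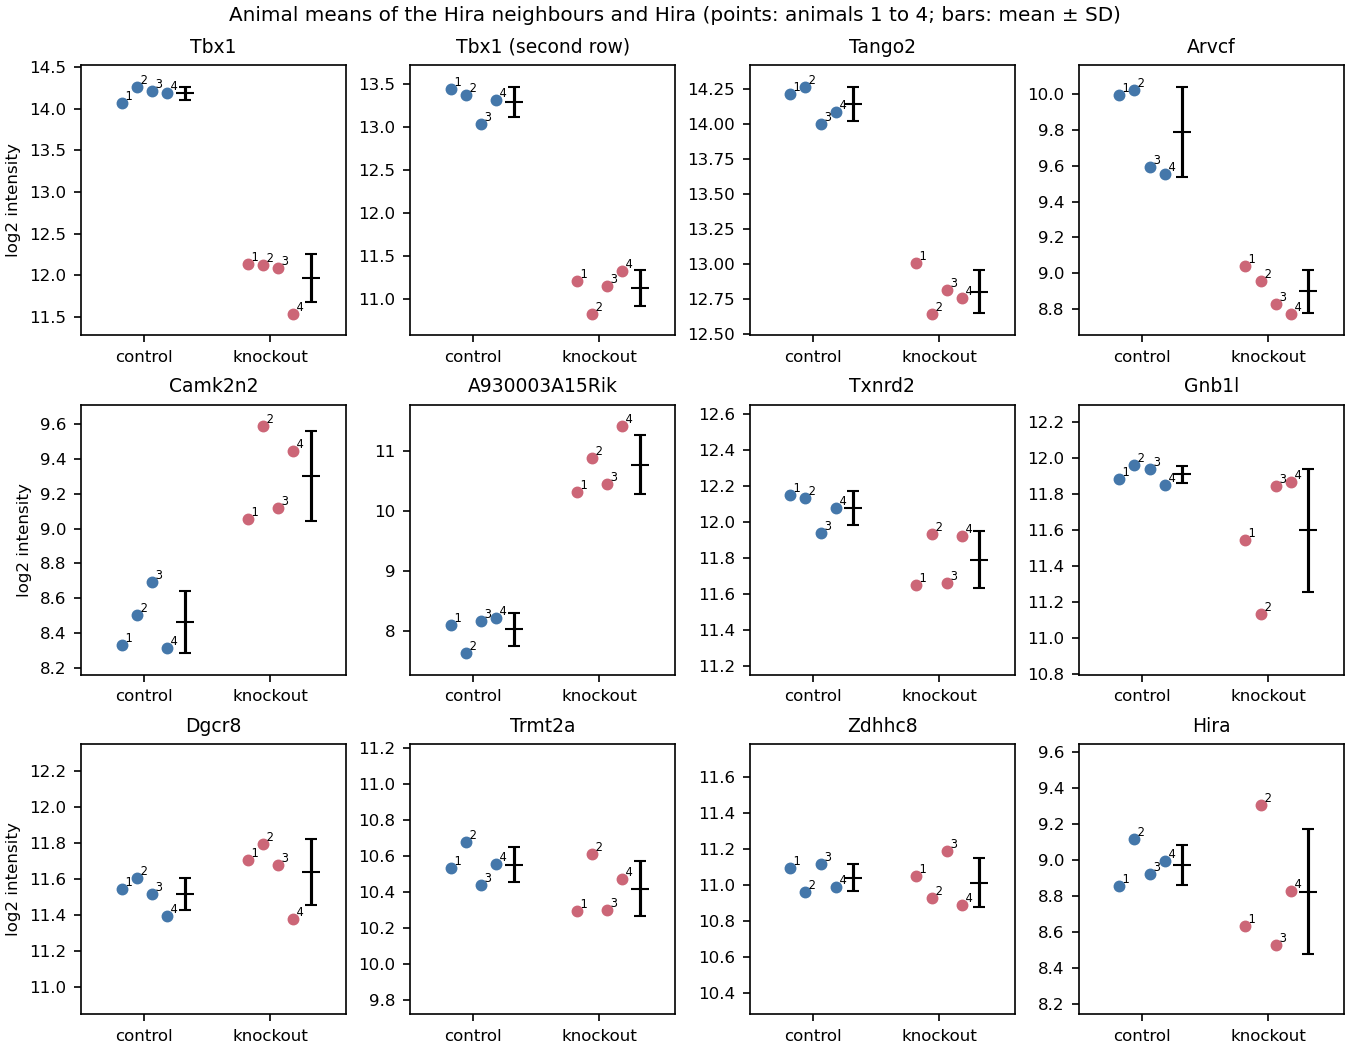
Log2 intensity (vertical axes, a separate scale for each panel) of the 10 members, the second Tbx1 row and Hira in 4 control and 4 knockout animals; each numbered point is the mean of the 3 hybridisations of an animal, and the bars give the group mean ± SD. Groups lie apart for Tbx1, Tango2, Arvcf, Camk2n2 and A930003A15Rik, nearly touch for Txnrd2 and overlap for the other members and Hira.

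Tbx1, the T-box factor, had the largest fall among the members. In its row of higher mean, control animals 1 to 4 measured 14.07, 14.26, 14.21 and 14.19, and knockout animals 1 to 4 measured 12.14, 12.12, 12.09 and 11.54. All knockout animals lay below all control animals by a gap of 1.93. Control muscle averaged 14.19 ± 0.08 (SD, n = 4 animals) and knockout muscle 11.97 ± 0.29, a difference of -2.21 ± 0.15 (SE), which is 4.64-fold lower. Knockout animal 4 stood below the other knockout animals, and that rests on 1 of its 3 hybridisations, which read 10.42 beside 12.15 and 12.05. With that animal left out, or with the median of the hybridisations in place of the mean, the difference was -2.07.

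The second Tbx1 row gave the same size of difference. Control animals measured 13.446, 13.369, 13.034 and 13.307 and knockout animals 11.204, 10.827, 11.145 and 11.321. The groups again did not overlap, and the difference was -2.16 ± 0.14, or 4.48-fold lower. Knockout animal 4 was the lowest knockout animal in 1 row and the highest in the other. Single arrays ranged from 13.74 to 14.70 in control and from 10.42 to 12.41 in knockout muscle in the row of higher mean. They ranged from 12.77 to 13.54 and from 10.53 to 11.55 in the second row, so in neither row did any knockout array reach a control array. Among all 17742 genes ranked by difference, Tbx1 was the 5th from the most lowered end.

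**Figure D2:**
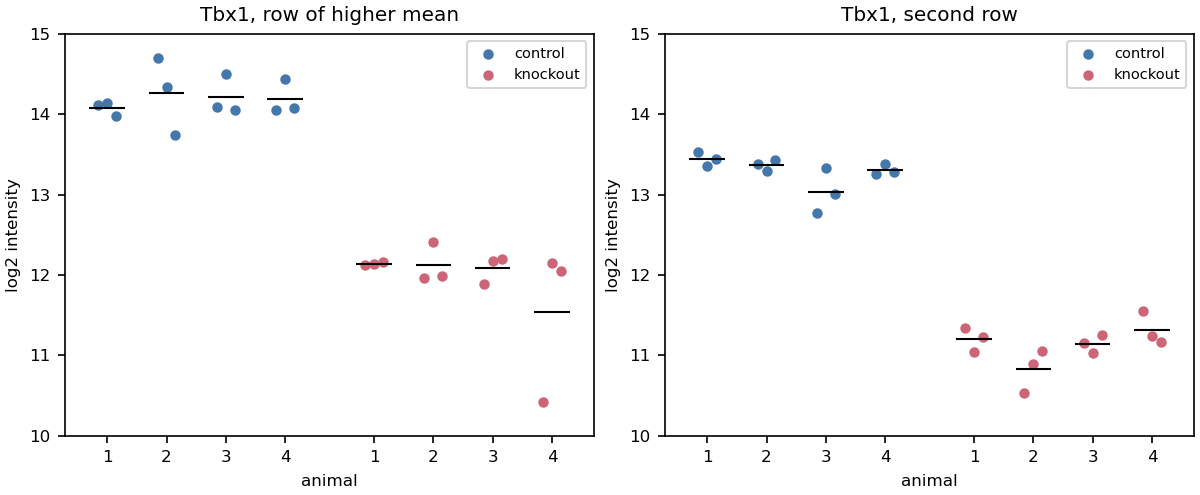
Log2 intensity (vertical axis) of the pair of Tbx1 rows on each of the 24 arrays, by animal (horizontal axis, control 1 to 4 and then knockout 1 to 4); points are hybridisations and lines are animal means. The low mean of knockout animal 4 in the left panel comes from 1 hybridisation at 10.42, and the right panel shows no such value.

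Tango2, named for its role in transport and Golgi organisation, was lower in every knockout animal. Control animals measured 14.22, 14.27, 14.01 and 14.09, and knockout animals 13.01, 12.65, 12.81 and 12.76. The means were 14.15 ± 0.12 and 12.81 ± 0.15, a difference of -1.34 ± 0.12 or 2.53-fold. The nearest animals of the groups were 0.999 apart, a wider gap than the SD within either group. It ranked 30th from the most lowered end of all genes.

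Arvcf, an armadillo-repeat catenin of the p120 family that binds the inner part of cadherins, was also lower. Its promoter window 1 overlaps window 1 of Tango2, and any link of that overlap to the lower values was not tested. Arvcf measured 9.99, 10.02, 9.59 and 9.55 in control animals and 9.04, 8.96, 8.83 and 8.77 in knockout animals. Groups did not overlap, with a gap of 0.51. Within the control group animals 1 and 2 read higher than animals 3 and 4, and these pairs also fall in separate ranges of the animal numbers in the sample titles. The means were 9.79 ± 0.25 and 8.90 ± 0.12, a difference of -0.89 ± 0.14, which is 1.86-fold lower. Its rank was 159 from the most lowered end.

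Both members on the far side of Hira were higher in knockout muscle. A930003A15Rik, the long noncoding RNA, measured 8.10, 7.62, 8.16 and 8.22 in control animals and 10.32, 10.87, 10.45 and 11.41 in knockout animals. The groups were 2.11 apart, the widest gap of any member. Its means were 8.02 ± 0.27 and 10.76 ± 0.49, a difference of 2.74 ± 0.23 or 6.68-fold higher, and it ranked 9th from the most raised end of all genes. Its lowest control array read 6.996, just above the dim level and near the lower end of what the arrays resolve. That was hybridisation 2 of control animal 2, whose other hybridisations read 8.03 and 7.85.

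Camk2n2 encodes an inhibitor protein of the calcium/calmodulin-dependent kinase CaMKII. Its control animals measured 8.33, 8.50, 8.69 and 8.31 and its knockout animals 9.06, 9.59, 9.12 and 9.45. All knockout animals lay above all control animals, with a gap of 0.36. The means were 8.46 ± 0.18 and 9.30 ± 0.26, a difference of 0.84 ± 0.15, which is 1.79-fold higher. It ranked 355th from the most raised end.

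The other 5 members did not pass. For Txnrd2, the thioredoxin reductase of mitochondria, control animals read 12.15, 12.13, 11.94 and 12.08 and knockout animals 11.65, 11.94, 11.66 and 11.92. The lowest control animal and the highest knockout animal were only 0.0052 apart, and single arrays overlapped. The difference was -0.28 ± 0.12 (95% interval -0.55 to -0.02), not adjusted for the number of genes. Among the members that passed, Camk2n2 had the smallest difference in size, 0.84, and among those that did not, Gnb1l had the largest, -0.31.

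Gnb1l, a WD-repeat protein related to G protein beta subunits, read 11.89, 11.96, 11.94 and 11.85 in control animals and 11.55, 11.13, 11.85 and 11.87 in knockout animals. Knockout animals 1 and 2 were low while 3 and 4 lay at the control level, which gave a difference of -0.31 ± 0.16 (95% interval -0.66 to 0.04), or -0.16 without knockout animal 2. Dgcr8, which together with the nuclease Drosha cuts microRNA precursors in the microprocessor, read 11.39 to 11.61 in control animals and 11.38 to 11.79 in knockout animals, a difference of 0.12 ± 0.12 (95% interval -0.15 to 0.39). With 1 animal left out it ranged from 0.07 (without knockout animal 2) to 0.21 (without knockout animal 4).

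Trmt2a, a methyltransferase of uridine in transfer RNA, read 10.44 to 10.68 in control and 10.29 to 10.61 in knockout animals, a difference of -0.13 ± 0.12 (95% interval -0.39 to 0.13). Zdhhc8, an enzyme that attaches palmitate to proteins, read 10.96 to 11.11 in control and 10.89 to 11.19 in knockout animals, a difference of -0.03 ± 0.11 (95% interval -0.27 to 0.22). The animals of both groups overlapped for Gnb1l, Dgcr8, Trmt2a and Zdhhc8. Their intervals exclude a log2 change of 1 in either direction but leave smaller changes unresolved.

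Hira itself did not pass either. It measured 8.85, 9.11, 8.92 and 8.99 in control animals and 8.63, 9.31, 8.52 and 8.83 in knockout animals, with knockout animal 2 above every control animal. The difference was -0.15 ± 0.17. No source used here places the probe inside or outside the deleted exons, so this row checks nothing about the genotype.

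The animal numbers in the sample titles fall in a lower and a higher range, with 2 animals of each group in either; the labels do not say what the range marks. Within the lower and the higher range, the difference was -2.04 and -2.39 for Tbx1, -1.42 and -1.26 for Tango2, and -1.01 and -0.77 for Arvcf. It was 0.91 and 0.78 for Camk2n2 and 2.74 in both for A930003A15Rik. The 5 members that passed had the same direction in both ranges. That was fixed in advance, since the animals of the groups did not overlap for any of them, and only the sizes could differ. Gnb1l differed most between them, at -0.58 and -0.04, a difference that was not tested.

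**Figure D3:**
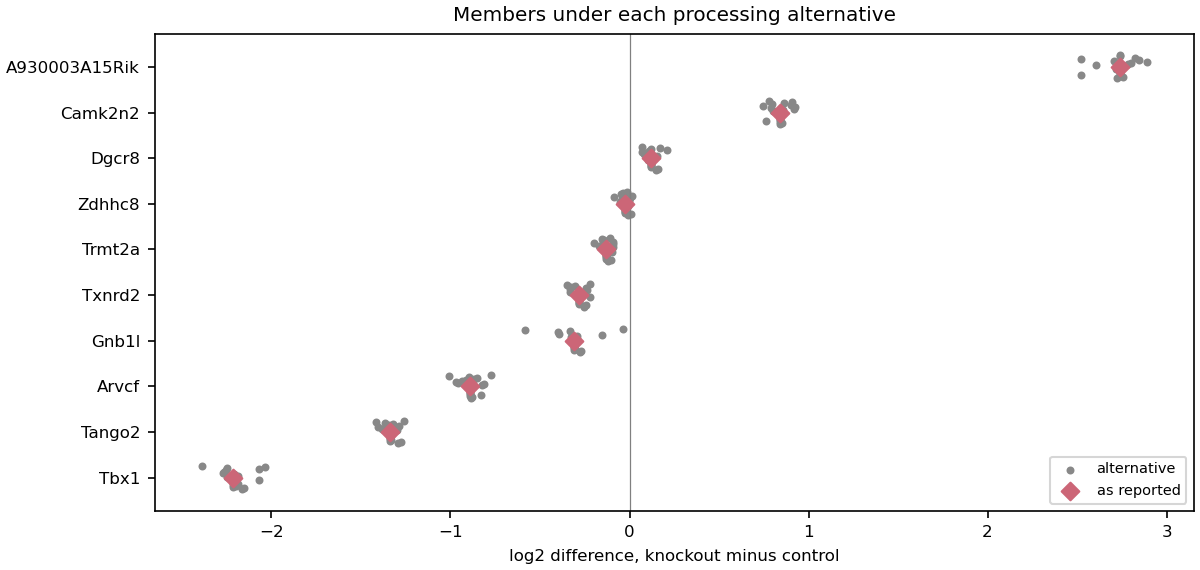
Log2 difference, knockout minus control (horizontal axis), of the 10 members under 23 alternative ways of processing (grey points, among them each animal left out and each range of animal numbers alone) and as reported (red diamonds). The points of the 5 members that passed stay on 1 side of 0, those of Gnb1l spread from -0.58 to -0.04, and those of Zdhhc8 lie on both sides of 0. For the 5 that passed, a subset of the animals could not change the side, since their groups do not overlap.

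Members were also compared with the measured genes around them. Within 30 places of Hira 17 genes were measured, 8 of them members, and 5 of the 17 passed: Tbx1, Tango2 and Arvcf fell, and 4933432I09Rik (0.41; limma, adjusted p = 0.0402) and 2510002D24Rik (0.45; limma, adjusted p = 0.0397) rose. That share, 29.4%, counts 3 members that this same contrast had chosen. Each of those rises lost its call in 7 of 8 runs that left out 1 animal, with adjusted p in limma up to 0.130 and 0.101. Of the 17 genes, 15 lay on the lower-numbered side of Hira, with all 5 calls, and 2 on the higher-numbered side. The count of 5 fell to 3 without control animal 1, 3 or 4 or without knockout animal 1 or 3. Within 75 places 12 of 69 genes passed (17.4%, 7 lower and 5 higher), and 5 of the 12 are such members. With the members left out, 2 of 9 genes within 30 places and 7 of 59 within 75 places (11.9%) passed, and on chromosome 16 beyond that 48 of 500 (9.60%); these shares were not tested against each other. Shares over the 20 chromosomes with measured genes ranged from 7.86% to 10.7%.

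Arvcf and Tango2 had no measured gene between them, whereas Txnrd2 and Gnb1l, which did not pass, lay between Arvcf and Tbx1. Of the 6 measured genes between Tbx1 and Hira 1 passed, the rise of 2510002D24Rik. Mrpl40, a mitochondrial ribosome protein adjacent to Hira, differed by -0.34 ± 0.12 with no overlap of animals (limma, adjusted p = 0.118). The others that did not pass were Ufd1 (-0.11), Cdc45 (0.13), Gp1bb (-0.03) and Cldn5. Of 33 other genes listed for this stretch 27 were measured; 2 fell and 0 rose in limma (unadjusted p under 0.05: 3 lower and 0 higher), with a median difference of -0.11. Klhl6, a Kelch-family protein next to A930003A15Rik in the gene order, fell from 13.12 to 12.28, a difference of -0.84 ± 0.16 (1.79-fold; limma, adjusted p = 0.0076). Parl, a protease of the inner mitochondrial membrane, fell by 0.50 ± 0.12 (1.41-fold; limma, adjusted p = 0.026). The call of Parl was lost without control animal 1 or 2 or knockout animal 2 or 3, with adjusted p up to 0.0764, while that of Klhl6 held in all 8 such runs.

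The largest other rise within 75 places on the higher-numbered side was that of Fam131a, 64 places from Hira, which was named after its value was seen. It rose by 0.90 (1.87-fold; limma, adjusted p = 0.0006), so both directions occurred on the higher-numbered side: Klhl6 and Parl fell, while A930003A15Rik, Camk2n2 and Fam131a were higher. On the lower-numbered side Hic2, at place -71 counted from Hira and also named after its value was seen, fell by 0.67 (limma, adjusted p = 0.0052).

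**Figure D4:**
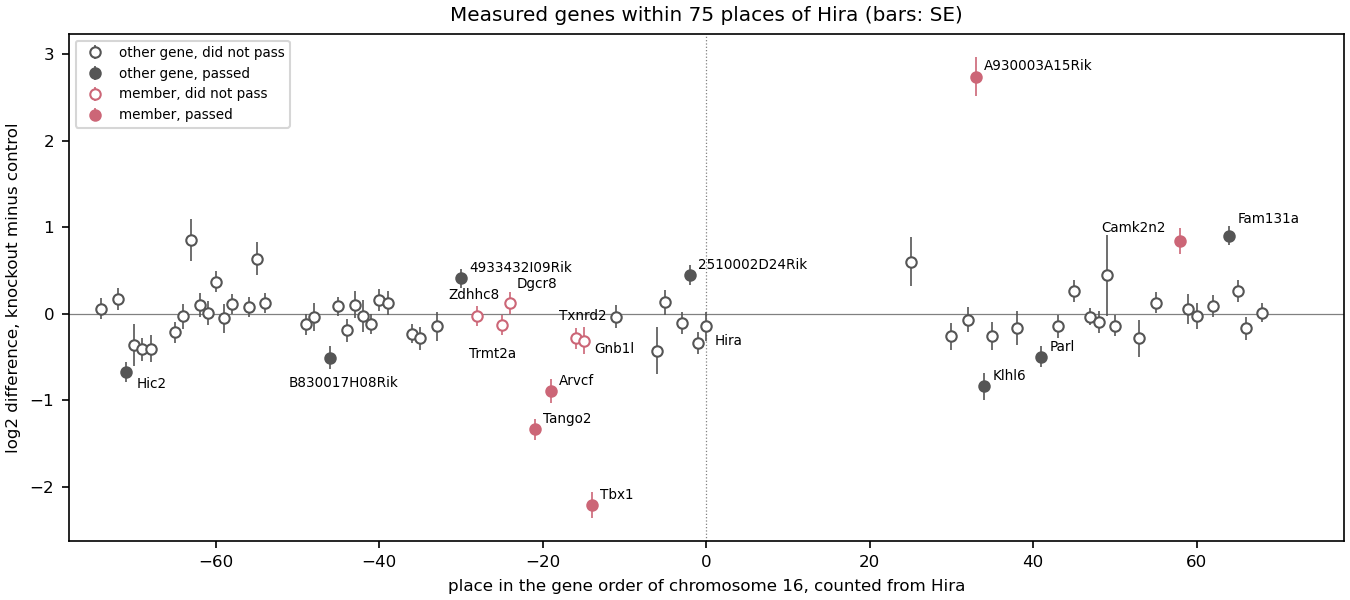
Log2 difference, knockout minus control (vertical axis, bars are SE), of each measured gene within 75 places of Hira, by place in the gene order of chromosome 16 (horizontal axis, Hira at 0); red points are members, and filled points passed. The lowered members that passed lie 14 to 21 places to the left of Hira. Txnrd2 (-0.28) and Gnb1l (-0.31), which did not pass, lie between Arvcf and Tbx1. The raised members that passed lie 33 and 58 places to the right.

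Cldn5, a claudin of endothelial tight junctions, lies between Hira and Tbx1 and marks another cell type of the muscle. It differed by -0.43 ± 0.27 (limma, adjusted p = 0.367). Of 12 endothelial markers, all measured and Cldn5 among them, 3 fell and 0 rose in limma (unadjusted p under 0.05: 7 lower and 0 higher): Gpihbp1 (-1.07), Icam2 (-0.80) and Emcn (-0.59), with a list median of -0.43. Their summed intensity ranged from 115470 to 147163 in control animals and from 76892 to 107987 in knockout animals, and the groups did not overlap. Each of the 12 differences lay below 0, but only the 3 named passed in limma. Their part in the lower values of Tbx1, Tango2 and Arvcf was not tested.

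Markers of smooth muscle and pericytes (3 of 5 fell, median -0.59) and of adipocytes (3 of 6 fell, median -0.82) were lower as well. Smooth muscle sums were 35168 to 43928 in control and 25844 to 31040 in knockout animals, and adipocyte sums 83013 to 103425 and 55524 to 93098. Of 12 muscle fibre markers 7 were measured, with group means between 18.04 and 18.65, and 0 passed in limma (0 at an unadjusted p under 0.05; median -0.18). These markers lie near the top of the scale, since the highest linear intensity of an array was 437047 to 761817. Whether the arrays still resolve a change at that level was not tested. Fibre marker sums overlapped, at 2247670 to 2952560 and 1877690 to 2767050. Fibroblast markers did not pass (0 of 6 in limma, with 2 at an unadjusted p under 0.05, 1 in each direction; median 0.06), nor did platelet markers (0 of 6 in limma, with 1 lower at an unadjusted p under 0.05; median -0.19). In the lists of satellite cells (5 measured, median -0.33), macrophages (5, median 0.03), Schwann cells (4, median -0.60) and blood (2, median -0.85) 1 gene each fell and 0 rose in limma. At an unadjusted p under 0.05, 2, 1, 3 and 2 genes of these lists were lower, in that order, and 0 were higher.

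Genes that work with the members or belong to their families, called partner genes here, were taken from lists that did not use how they moved. Earlier results of these data were known when the lists were set. Over all of these lists 93 of 104 genes were measured, and 3 rose and 5 fell, 8.60% beside the 9.28% of all genes. Without knockout animal 3 only 2 of them passed, without control animal 4 only 3, without control animal 1 only 4 and without knockout animal 2 only 5.

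Among 14 T-box factors, the family of Tbx1, 2 fell and 0 rose in limma (unadjusted p under 0.05: 2 lower and 2 higher; median -0.04). Eomes, known from the early embryo and from lymphocytes, fell from 14.13 ± 0.21 to 13.51 ± 0.11, which is 1.54-fold (limma, adjusted p = 0.0142), without overlap of animals, and its call held with each animal left out. Tbx15, a T-box factor known from fast muscle fibres, fell from 15.75 ± 0.29 to 15.22 ± 0.07, or 1.44-fold (limma, adjusted p = 0.0464). Its call was lost in 7 of 8 runs that left out an animal, with adjusted p up to 0.124. Of 16 genes of the Tbx1 pathway and of head and trunk myogenesis 8 were measured and 0 passed in limma (2 lower at an unadjusted p under 0.05). Those were Tcf21 (-0.48; limma, adjusted p = 0.158) and Msc (-0.28; limma, adjusted p = 0.167), factors of head muscle formation.

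All 14 catenins and cadherins listed with Arvcf were measured, and 0 passed in limma (2 higher and 1 lower at an unadjusted p under 0.05; median -0.09). The smallest adjusted p in limma was that of the muscle cadherin Cdh15, at 0.0638 with a difference of 0.44, followed by Erbin at 0.123 with 0.42. Of 8 genes of CaMKII and its inhibitors listed with Camk2n2, 7 were measured and Calm3, a calmodulin gene, fell by 0.58 (1.49-fold; limma, adjusted p = 0.0212). That call was lost without control animal 4 or knockout animal 3, with adjusted p up to 0.062.

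The thioredoxin system, which holds Txnrd2, had 10 of 11 genes measured, with 1 higher and 1 lower. Prdx3, the peroxiredoxin of mitochondria, fell by 0.52 (1.43-fold; limma, adjusted p = 0.0116), with control animals at 13.14 to 13.19 and knockout animals at 12.52 to 12.75, and held with each animal left out. Txnrd3, a further thioredoxin reductase, rose by 0.41 (1.33-fold; limma, adjusted p = 0.0343) but lost its call in 6 of 8 such runs, with adjusted p up to 0.0985.

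With Dgcr8, 11 of 12 genes of microRNA processing were measured, and Tarbp2, a partner of Dicer, rose by 0.43 (1.35-fold; limma, adjusted p = 0.0465); it lost its call in 7 of 8 runs, with adjusted p up to 0.112. Of 10 transfer RNA modification genes listed with Trmt2a, Nsun2, a cytosine methyltransferase of transfer RNA, fell by 0.62 (1.53-fold; limma, adjusted p = 0.0192). It lost its call without control animal 1 or 3 or knockout animal 3, with adjusted p up to 0.0605. Of 5 G protein beta subunits listed with Gnb1l, Gnb5 rose by 0.49 (1.41-fold; limma, adjusted p = 0.0197) in its row of highest mean. Its other rows gave 0.32 and -0.48, so its rows disagree in sign, and its call was lost without control animal 4 or knockout animal 3, with adjusted p up to 0.0666. None of 14 palmitoyltransferases listed with Zdhhc8 passed in limma (0 at an unadjusted p under 0.05), with Zdhhc14 at 0.26 (limma, adjusted p = 0.253) and Zdhhc7 at -0.22 (limma, adjusted p = 0.260).

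**Figure D5:**
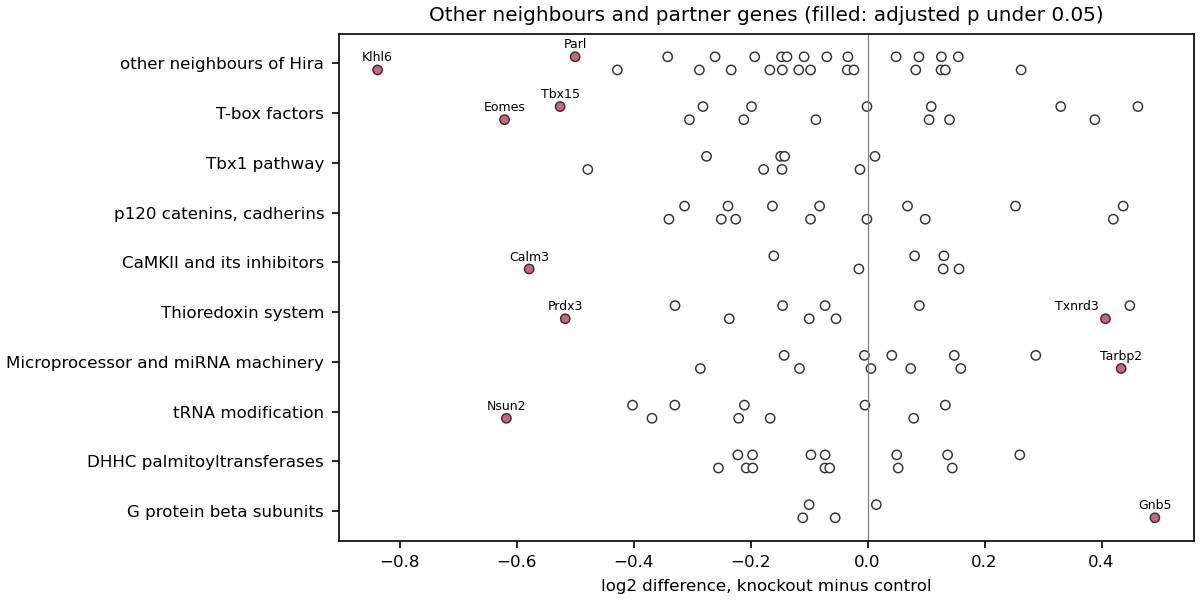
Log2 difference, knockout minus control (horizontal axis), of the other listed genes beside Hira and of 9 lists of partner genes. Partner genes work with the members or belong to their families (vertical axis, 1 point per measured gene). Filled and named points passed in limma. Most genes of each list lie within 0.4 of 0, and 10 genes passed.

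The spread of the lowered members over animals was compared once the group means had been taken out, over 8 animals and 15066 genes. By Pearson correlation the genes most like Tbx1 were Tmem273 (0.984), Ghr (0.979) and Cfap52 (0.979); those most like Tango2 were Ubxn2a (0.989), Nsmce1 (0.986) and Gart (0.980); and those most like Arvcf were Ptcd1 (0.990), Smo (0.987) and Cpt2 (0.984). With 8 animals such values are common: 134 genes exceeded 0.9 for Tbx1, 85 for Tango2 and 313 for Arvcf. Among the members Tango2 and Arvcf correlated at 0.677, Tbx1 and Arvcf at 0.260, and Tbx1 and Tango2 at 0.165. The values of Tbx1 rest largely on knockout animal 4, which deviated by -0.43 from its group mean and holds the hybridisation at 10.42. In the second Tbx1 row that animal lay 0.20 above the mean, and the pair of Tbx1 rows correlated at -0.53 with each other. The second row correlated at 0.686 with Tango2 and 0.275 with Arvcf, so the likeness of Tbx1 to other genes depends on the row. All these points share arrays and their low-end scale, and the values are a description.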

How the data were processed

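Labelled total RNA of tibialis anterior was hybridised to arrays, per the labels' protocols; the dye is unsettled, since the label field says Cy3 and the labelling protocol Cy5. The authors deposited 1 linear intensity per row and array. All 24 arrays had a median intensity of 626 as deposited, and no source used here gives their background correction or scaling. Values under 38.8, the 5th percentile of all values, were set to that floor, log2 was taken, and the 3 hybridisations of an animal were averaged. Animals were numbered 1 to 4 in the order of deposit, which pairs nothing. The annotation named 20377 rows (18213 by a current RefSeq symbol, 2126 by a synonym); 6046 rows had no symbol. The row of highest mean stood for a gene.

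The comparison of groups used lmFit and eBayes of limma 3.58.1 under R 4.3.3 (Benjamini-Hochberg over 17742 genes), tested on simulated data. The number of animals, 4 in each group, limits the precision. A p-value sets the group difference against the spread between animals, and limma draws the spread of each gene toward that of all genes. The 10 members and all lists were chosen with earlier results of these data known. Named genes are the members, Hira and, from the lists of neighbours, partners and endothelial markers, those that passed. Where none of a list passed, the 2 of smallest p are named. Also named are the measured genes between Tbx1 and Hira, transcripts that overlap a member, and the genes most like each lowered member. The genes 4933432I09Rik, 2510002D24Rik, Fam131a and Hic2 were named after their values were seen. Likeness is the correlation of group-centred animal means. Over pairs of arrays of different animals, deviations from the group means correlated at a median of 0.04 (-0.63 to 0.75, 84 pairs) when hybridisation numbers matched and -0.02 when they differed. Since not every pair was above 0.1, the numbers were not taken to pair arrays.

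The alternatives were quantile and cyclic loess scaling, other floors, a filter on dim rows, the mean or every row of a gene, a fit to single arrays that treats the animal as a random block, the median of hybridisations, trended robust variances, a block for the range of animal numbers, and each animal left out. Each range of animal numbers alone, 75 places in place of 30, and leaving out the 2 arrays of highest background were chosen after seeing the data.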

Additional observations from a re-analysis of the deposited data

Results flagged for a closer look

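Among 48 groups of 4 animals, 2 held an animal set apart from the other 3 by Dixon's criterion, which chance gives in about 1 of 20 groups. In the Tbx1 row of higher mean, knockout animal 4 lay at 11.54 and the other knockout animals at 12.09 to 12.14; the second Tbx1 row did not set this animal apart. In Tbx15, knockout animal 1 lay at 15.33 and the other knockout animals at 15.18 to 15.19.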

How the results depend on the processing

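The 5 members that passed did so in 21 of 23 alternatives. In the lower range of animal numbers alone (2 animals against 2) 2 of them did, Tbx1 and A930003A15Rik, and in the higher range 4, all but Camk2n2. No sign changed among the members except for Zdhhc8, whose difference of -0.03 became 0.0084 under cyclic loess, 0.0013 without knockout animal 2 and 0.015 without knockout animal 4 (-0.085 to 0.015 with an animal left out). Scaling moved the median of all genes from -0.07 to -0.01 (quantile) and -0.0026 (loess).

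The genes called over the whole array, 1647, became 2569 under quantile scaling, 3149 with all arrays and the animal as a random block, and 2978 with the hybridisation number as a replicate block as well; 62 in the lower and 508 in the higher range of animal numbers alone; and 945 to 1693 with 1 animal left out, lowest without knockout animal 3, and 1062 without control animal 1. The replicate block left 5 members called. The 8 partner genes called became 15 with the random block, 14 with the replicate block, 2 to 7 with an animal left out, and 0 in either range alone by limma, where 15 and 17 had an unadjusted p under 0.05. The 5 calls within 30 places became 3 with every row, 3 with the median of hybridisations, 3 to 4 with an animal left out, 1 and 3 in the ranges alone, and 12 within 75 places. The endothelial median stayed between -0.57 and -0.34. Values near the dim level, such as the lowest control array of A930003A15Rik, are the least resolved.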
